A study of Mus musculus with 10 samples.

Results

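The comparison described here pools libraries labelled as knockouts of either of a pair of genes of one silencing pathway. The 5 Nestin-Cre+ libraries (3 Mphosph8∆n and 2 Morc2a∆n) formed one group and the 5 Nestin-Cre- libraries the other, with the floxed line as a covariate, and all 10 libraries of the series entered it. RNA was measured in neuronal nuclei that had been sorted for NeuN from brains of adult C57BL/6J mice. Mphosph8∆n mice carry Mphosph8 alleles with a floxed exon 4 (Mphosph8fl/fl) and Nestin-Cre, and Morc2a∆n mice carry Morc2a alleles with a floxed exon 4 (Morc2afl/fl) and Nestin-Cre. Control replicates 1 to 3 were Mphosph8fl/fl and control replicates 4 and 5 were Morc2afl/fl, all 5 without the transgene. Nestin-Cre acts in neural progenitors and their descendants, from the embryo onward, and at least 2 brains were used for each genotype. No control library carried Nestin-Cre alone. An effect of the transgene and an effect of the lost gene therefore cannot be told apart.

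MPP8, the product of Mphosph8, is the subunit of the HUSH complex that binds histone H3 trimethylated at lysine 9, and MORC2A is an ATPase that HUSH recruits to compact chromatin. Together with the methyltransferase SETDB1 they keep retroelements and many genes without introns silent. The clustered protocadherins (cPcdhs) are cell adhesion molecules of neurons, arranged in an alpha, a beta and a gamma array, and each neuron transcribes a small choice of them. The comparison asks what loss of either silencer had in common in neurons.

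The total was between 6686038 and 10764555 counts per Cre- library (median 10003517) and between 9475921 and 10357845 per Cre+ library (median 9602104). A count of 0 allows up to 3 counts, which is 0.279 to 0.449 CPM (counts scaled to library size) depending on the library, and this floor covers counting error only. Markers of neurons in general summed to between 4670 and 6529 CPM, those of astrocytes to between 821 and 1166 CPM, those of oligodendrocytes to between 590 and 1033 CPM and those of microglia to between 43.9 and 99.0 CPM per library. Several libraries stood apart. Mphosph8∆n replicate 2 held 1680 counts of Pomc and 183 of Prl, both pituitary hormone genes. Morc2a∆n replicate 1 had 2.26% of its counts on Pask, 23094 CPM against 12.4 to 32.0 CPM in the other 9 libraries. In control replicate 4, markers of cerebellar granule neurons summed to 777 CPM, against 204 to 272 CPM in the other controls. Mphosph8∆n replicate 3 lay apart from the rest on the second axis of a multidimensional scaling of all genes. The study describes its data in general as biological replicates and these mice as littermates, but the labels tie no library to an animal, so p-values measure the spread between these libraries.

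Counts over the whole targeted genes did not bear out the labels. By other assays, the study verified loss of both genes in whole brains, with quantitative RT-PCR and immunoblots. It also measured both transcripts by RT-PCR in sorted NeuN+ nuclei. Loss of the floxed exon is described as shifting the reading frame and exposing the transcript to decay, so a lower level would be looked for, although counts over a whole gene do not show that exon itself. Mphosph8 had 37.2, 35.96 and 18.8 CPM in the Mphosph8∆n libraries and 32.2 to 49.0 CPM in the controls, so it was below the controls in 1 of 3 libraries (log2 fold change in the Mphosph8 line -0.16, unadjusted p = 0.510). Morc2a had 215 and 223 CPM in the Morc2a∆n libraries and 122 to 163 CPM in the controls, so it was higher and not lower there (log2 fold change in the Morc2a line 0.74, adjusted p = 0.169). In the Mphosph8∆n libraries Morc2a had between 154 and 199.98 CPM. Mphosph8∆n, Morc2a∆n and Cre+ therefore stand throughout for libraries labelled so, and every direction given rests on those labels. Rbfox3, which encodes NeuN, had between 150 and 274 CPM in the Cre- and between 211 and 304 CPM in the Cre+ libraries, and its log2 fold change was 0.22 (SE 0.14, adjusted p = 0.935).

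By edgeR, the libraries labelled as lacking either silencer had higher counts of a small set of genes, most of them in 1 gene cluster. Of 18573 genes tested, 15 rose in nuclei labelled Cre+ (0.0808% of those tested) and 1 fell (0.00538%), where a call required more than 2-fold change with a Benjamini-Hochberg adjusted p under 0.05 in edgeR's quasi-likelihood test. Of the 15 genes that rose, 12 lie in the protocadherin cluster on chromosome 18, namely 8 Pcdhb genes, 3 Pcdhg genes and the noncoding RNA 3222401L13Rik. The other 3 were Rnf113a2, Tchh and Gh, and the gene that fell was Kcnk15. Rtel1, a DNA helicase gene, was past the same adjusted p at a smaller fold change. In 15 of the 16 called genes the 5 Cre+ libraries all lay beyond the 5 Cre- libraries, and the exception was Pcdhb18. Over all genes tested, 0.630% lay above and 0.431% below in this way. The calls came from the same libraries, so this count is no separate support for them. DESeq2 called more genes, 33 higher (15 of them cPcdhs) and 3 lower. Among them were 15 of the 16 called genes, and Gh had no adjusted p. Testing every gene with at least 1 count gave 41 higher (17 of them cPcdhs) and 4 lower.

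**Figure D1:**
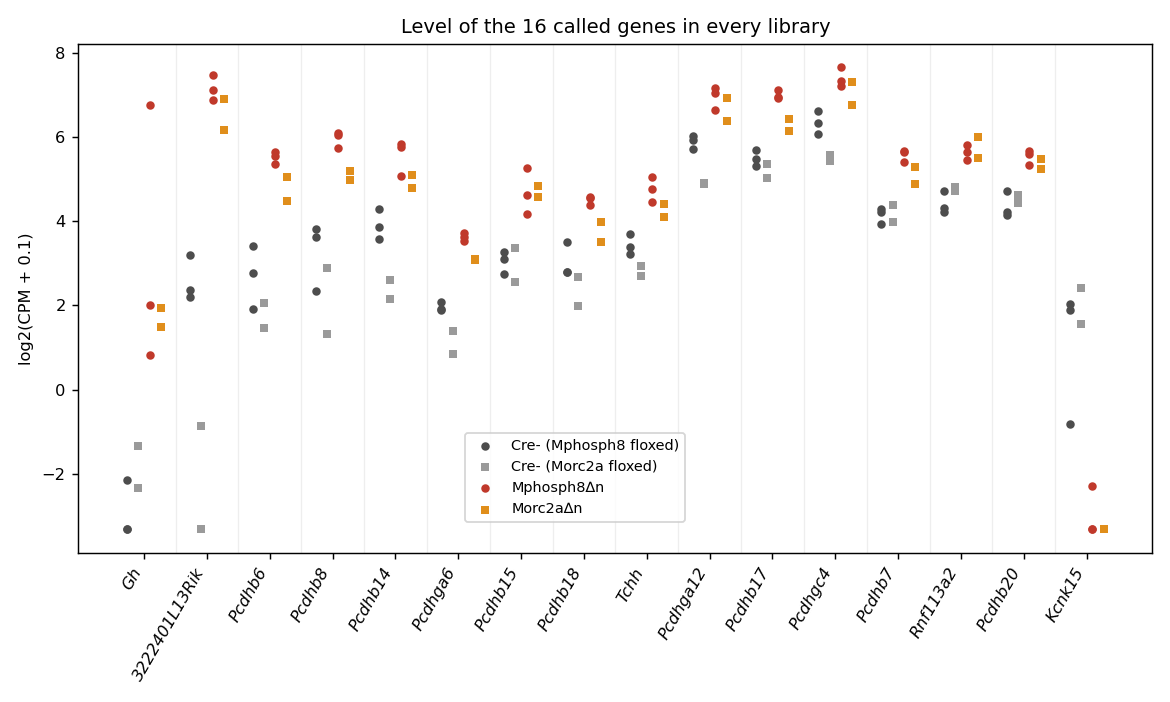
Level of each called gene in every library, as log2(CPM + 0.1), with genes ordered by their shared log2 fold change from the left. Dark grey circles are Cre- libraries of the Mphosph8 line, light grey squares those of the Morc2a line, red circles Mphosph8∆n and orange squares Morc2a∆n. The Cre+ points lie above the Cre- ones in 14 of the 15 genes that rose, touch them in Pcdhb18, and lie below them in Kcnk15, where 4 of the 5 Cre+ libraries are at 0.

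The gene with the smallest p was 3222401L13Rik (ENSMUSG00000073590), a noncoding RNA gene of 1 exon on chromosome 18 of GRCm38 (37655451 to 37661742, plus strand). It had 4.51, 9.08, 5.05, 0 and 0.446 CPM in control replicates 1 to 5, 178, 137 and 117 CPM in Mphosph8∆n replicates 1 to 3, and 71.2 and 119 CPM in Morc2a∆n replicates 1 and 2. The groups did not overlap, and the controls of the Morc2a line held 3 counts in all. Its shared log2 fold change was 5.25 (SE 0.43, adjusted p = 1.1e-05). It was chosen for description after its values were seen. It ends 50 bases before the annotated start of Pcdhga1, on the same strand. In counts, it was 22.8 times as abundant in Mphosph8∆n as in the controls of its line (95% exact interval 19.6 to 26.6) and 535 times in Morc2a∆n (183 to 2599), intervals that cover counting error only.

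The Pcdhb genes code for protocadherins, and most of these genes have a single exon in the annotation. Pcdhb6 (37333921 to 37337674) had the largest fold change of the called cPcdhs. Its level was 3.64, 10.4, 6.74, 4.06 and 2.67 CPM in control replicates 1 to 5, 49.9, 46.9 and 41.1 CPM in Mphosph8∆n and 32.7 and 22 CPM in Morc2a∆n. The lowest Cre+ library was above the highest control. Pcdhb6 rose by 2.82 on the log2 scale (SE 0.26, adjusted p = 3.91e-05).

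Pcdhb8 (37355121 to 37358604) had 12.2, 4.98, 13.9, 7.32 and 2.38 CPM in the controls, 65.4, 67.7 and 53.3 CPM in Mphosph8∆n and 36.6 and 31.5 CPM in Morc2a∆n, a log2 fold change of 2.65 (SE 0.28, adjusted p = 1.28e-04). Its Mphosph8∆n libraries were the highest and its groups did not overlap. Pcdhb14 (37447656 to 37456350), which the study examined in further assays, had 11.8, 14.4, 19.5, 5.94 and 4.31 CPM in the controls, 54.4, 56.9 and 33.2 CPM in Mphosph8∆n and 27.4 and 33.8 CPM in Morc2a∆n. Within each line, the Cre+ libraries of Pcdhb14 were above the controls, and the controls of the Morc2a line were the lowest of all. It rose by 1.99 on the log2 scale (SE 0.24, adjusted p = 5.47e-04).

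Pcdhb17 was the most abundant Pcdhb gene per length in the controls and remained so in the Cre+ libraries. It had 39.7, 44.7, 51.2, 32.7 and 40.5 CPM in the controls, 139, 123 and 122 CPM in Mphosph8∆n and 85.5 and 70.1 CPM in Morc2a∆n, a log2 fold change of 1.34 (SE 0.14, adjusted p = 1.02e-04). Pcdhb15 rose from 8.14 ± 1.88 to 26.6 ± 7.55 CPM (SD, n = 5 each), Pcdhb7 from 18 ± 2.49 to 42.3 ± 8.92 CPM and Pcdhb20 from 21.6 ± 3.62 to 44.2 ± 5.44 CPM. Pcdhb18 went from 7.0 ± 2.70 to 18.9 ± 5.35 CPM, with control replicate 2 at 11.3 CPM and Morc2a∆n replicate 2 also at 11.3 CPM. The shared log2 fold changes of these 4 genes were 1.70 (Pcdhb15), 1.21 (Pcdhb7), 1.03 (Pcdhb20) and 1.44 (Pcdhb18). Pcdhb18 lost the call without control replicate 1, 3 or 4, any of the 3 Mphosph8∆n replicates or Morc2a∆n replicate 1 (adjusted p up to 0.140), and Pcdhb20 without control replicate 1, 3 or 5, Mphosph8∆n replicate 1 or 2 or Morc2a∆n replicate 2.

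The Pcdhg genes each join a variable first exon to constant exons that the array shares. Between 37.9% and 44.8% of the exonic bases of the 3 called Pcdhg genes also belong to other genes, so their counts depend on how reads on shared exons were treated, which is not given in the sources used here. Pcdhga12 had 60.3, 51.9, 64.9, 29.4 and 30.003 CPM in the controls, 142, 100.23 and 132 CPM in Mphosph8∆n and 120 and 82.7 CPM in Morc2a∆n. The controls of the Morc2a line were lower than those of the Mphosph8 line, and the Cre+ libraries of both lines were higher than either. Its log2 fold change was 1.35 (SE 0.16, adjusted p = 5.47e-04).

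Pcdhgc4, a C-type member at the end of the array, had 97.6, 66.5, 80.7, 42.6 and 47.7 CPM in the controls, 202, 161 and 148 CPM in Mphosph8∆n and 157 and 108 CPM in Morc2a∆n, a log2 fold change of 1.25 (SE 0.15, adjusted p = 5.47e-04). No Cre+ library was as low as a control. Pcdhga6 had 3.64, 3.61, 4.12, 1.68 and 2.52 CPM in the controls, 13.1, 11.5 and 12.2 CPM in Mphosph8∆n and 8.41 and 8.37 CPM in Morc2a∆n (log2 fold change 1.81, SE 0.30, adjusted p = 0.0163). It was the least abundant called cPcdh, its groups did not overlap, and it lost the call without control replicate 1, 2 or 3, Mphosph8∆n replicate 1 or 2 or Morc2a∆n replicate 2 (adjusted p up to 0.0750).

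Across the whole cluster, 49 of 58 cPcdhs had enough counts to be tested, of which 9 were in the alpha, 21 in the beta and 19 in the gamma array. Of these 49, 11 rose (22.4%, against 0.0808% of all genes tested) and none fell, and 43 had a positive log2 fold change. At an unadjusted p below 0.05, 27 of the 49 were higher (55.1%, against 2.90% of all genes tested) and 0 were lower (2.86% of all genes tested). The 5 Cre+ libraries lay above the 5 Cre- libraries in 16 of the 49 (32.7%, against 0.630% of all genes tested). The median log2 fold change over the 49 was 1.21, beside -0.00 over all genes tested. The 49 passed the filter partly through their counts in Cre+ libraries, so these counts describe those that passed and not all 58.

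The arrays differed in counted level and in the change of their sums. The summed level of all Pcdhb genes was 227, 283, 285, 212 and 210 CPM in control replicates 1 to 5, 741, 651 and 622 CPM in Mphosph8∆n and 451 and 425 CPM in Morc2a∆n. The summed level of all Pcdhg genes was 184, 148, 178, 90.1 and 88.1 CPM in the controls, 443, 360 and 356 CPM in Mphosph8∆n and 326 and 230 CPM in Morc2a∆n. In both arrays, every Cre+ library was above every control. The Pcdha genes summed to 15.4, 16.6, 12.7, 9.80 and 12.9 CPM in the controls and to 33.3, 12.95, 6.94, 13.4 and 13.7 CPM in the Cre+ libraries, and these groups overlapped. None of the 9 Pcdha genes tested was called, and their median log2 fold change was 0.19, against 0.98 for Pcdhb and 1.64 for Pcdhg. By line, the Pcdha median was -0.09 in the Mphosph8 and 1.13 in the Morc2a line. Pcdhb had medians of 1.05 and 0.89 there, and Pcdhg of 1.69 and 1.77. Per gene, a weaker change of Pcdha was thus seen in the Mphosph8 line only. At levels this low, the absence of calls says little about the Pcdha genes. Together the cPcdhs held 394 ± 77.9 CPM in Cre- and 937 ± 213 CPM in Cre+ libraries (SD, n = 5 each), 2.39 times the controls in the Mphosph8 line and 2.34 times in the Morc2a line.

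The make-up of the cPcdh transcripts moved less than their sum. Pcdhb genes made up 62.4 ± 6.07% of all cPcdh counts in Cre- and 61.6 ± 2.82% in Cre+ libraries, and Pcdhg genes 34.2 ± 6.2% and 36.7 ± 2.70% (SD, n = 5 each). Pcdha genes made up between 2.68% and 4.16% in Cre- and between 0.704% and 2.74% in Cre+ libraries, which overlapped only between control replicate 3 and Mphosph8∆n replicate 1. Per length, as reads per kilobase of exon scaled to library size (RPKM, computed from the counts), Pcdhgc4 (11.98 and 27.7 RPKM in Cre- and Cre+), Pcdhb17 (8.96 and 23.1) and Pcdhga12 (7.10 and 17.3) were the 3 most abundant cPcdhs in both groups. Behind them, Pcdhb8 went from rank 12 (2.34 ± 1.38 RPKM) to rank 4 (14.6 ± 4.71 RPKM) and Pcdhb6 from rank 16 (1.47 ± 0.837 RPKM) to rank 7 (10.3 ± 3.02 RPKM) of 49. Pcdhb9, which was not called (log2 fold change 0.24), went from rank 4 (6.53 ± 3.00 RPKM) to rank 10 (7.70 ± 4.04 RPKM). Of 19 cPcdhs with at least 1 RPKM in the controls, 18 had a positive log2 fold change, and the exception was Pcdhb19 (-0.03).

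Among the scarcer members, Pcdhga7 had 0 counts in all 5 controls and 5, 69 and 39 counts in Mphosph8∆n and 5 and 2 counts in Morc2a∆n. Counted against a floor of 3 counts over the 5 controls it was 37.5-fold higher. Its exact interval, which covers counting error only, began at 30.1-fold. The Mphosph8 line held 113 of these counts, with a floor fold of 36.7 and an interval from 29.4-fold. The Morc2a line held 7, with a floor fold of 2.06 and an interval from 1.27-fold. The adjusted p of Pcdhga7 for the shared effect was 0.163. With Pcdhga7 at the floor fold of 37.5 the median log2 fold change of the Pcdhg genes stayed at 1.64. Pcdhga4 (log2 fold change 3.23, adjusted p = 0.153), Pcdhb11 (1.36, adjusted p = 0.120) and Pcdhb12 (1.09, adjusted p = 0.141) also missed the threshold. Members of the cPcdh family resemble each other in sequence, and how reads that fit several members were counted is not given in the sources used here, so the split between neighbours is uncertain. The sums of the alpha and gamma arrays also depend on this, since their genes share constant exons, whereas most Pcdhb genes share no exonic bases. Levels, percentages and RPKM ranks may therefore not be comparable between arrays.

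**Figure D2:**
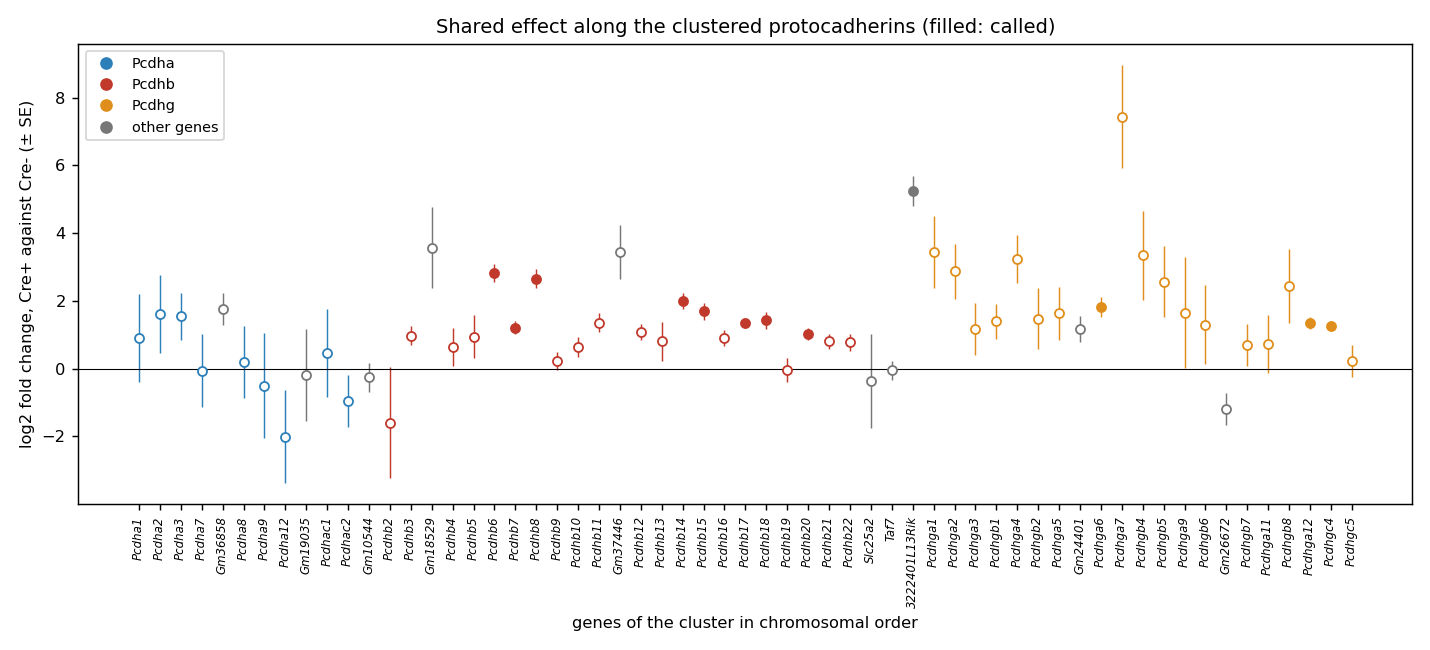
Shared log2 fold change with its standard error for the 59 genes tested in the cluster, in chromosomal order from Pcdha1 to Pcdhgc5. Filled points are called. The Pcdha genes scatter around 0, nearly all Pcdhb and Pcdhg genes lie above it, and Slc25a2 and Taf7 between these arrays lie near 0 beside 3222401L13Rik at 5.25. The fitted value of Pcdhga7, which had 0 counts in the controls, depends on the prior count of the fit.

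The cluster spans 912 kb (chromosome 18, 36930184 to 37841873), and 10 of its 59 tested genes are not cPcdhs. Beside 3222401L13Rik, 4 of the 10 were higher and 1 was lower at an unadjusted p below 0.05 (background 2.90% and 2.86%). Gm37446, an antisense gene that shares 67.6% of its exonic bases with other genes, Gm18529 and Gm36858, both pseudogenes, and Gm24401, a small nucleolar RNA gene, were the 4 with higher values. The lower gene was Gm26672 (log2 fold change -1.19, unadjusted p = 0.0226), on the strand opposite to the Pcdhg genes, with 75.0% of its exonic bases shared. Whether reads were assigned by strand is not given in the sources used here, so reads of Gm37446 and of Pcdhb12 opposite to it cannot be told apart. The same holds for Gm26672 and the Pcdhg genes it overlaps. Slc25a2 (log2 fold change -0.36) and Taf7, which codes for a subunit of the transcription factor TFIID (-0.05), lie between the beta and gamma arrays on the other strand and had unadjusted p-values of 0.795 and 0.867. In the 500000 bases on either side of the cluster, 17 genes before it and 10 after it were tested, and none passed an adjusted p of 0.05. Their median log2 fold changes were 0.01 and -0.04, and 1 of the 27 had an unadjusted p below 0.05.

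Outside the cluster, Rnf113a2 (ENSMUSG00000098134, chromosome 12, 84417196 to 84418578) had the smallest p. It is a gene of 1 exon related to Rnf113a1, a ring finger gene of the splicing machinery. Its level was 25.9, 18.4, 19.7, 27.8 and 26 CPM in control replicates 1 to 5, 56.3, 43.9 and 49.6 CPM in Mphosph8∆n and 63.7 and 45.1 CPM in Morc2a∆n. All Cre+ libraries were above all controls, at 51.7 ± 8.27 against 23.6 ± 4.21 CPM (SD, n = 5 each). Rnf113a2 rose by 1.14 on the log2 scale (SE 0.17, adjusted p = 0.00575), by 1.23 in the Mphosph8 line and 1.01 in the Morc2a line. Of 34 genes tested within 500000 bases of it, none passed an adjusted p of 0.05. At an unadjusted p below 0.05 there were 2, Riox1 (log2 fold change -0.92) and Pnma1 (0.83), beside backgrounds of 2.86% lower and 2.90% higher.

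Tchh (chromosome 3, 93442330 to 93449077) codes for trichohyalin, a structural protein of the hair follicle. It had 10.3, 9.27, 12.7, 6.33 and 7.57 CPM in the controls, 21.8, 27 and 32.7 CPM in Mphosph8∆n and 21 and 17 CPM in Morc2a∆n. The highest control was below the lowest Cre+ library. Tchh rose by 1.38 on the log2 scale (SE 0.21, adjusted p = 0.00880), by 1.33 and 1.45 in the Mphosph8 and Morc2a line. The 2 other genes tested within 500000 bases did not pass the threshold. Without both Mphosph8∆n replicate 2 and Morc2a∆n replicate 1, a choice made after the data were seen, Rnf113a2 and Tchh kept log2 fold changes of 1.11 and 1.32 with adjusted p-values of 0.0636 and 0.120.

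Rtel1 (chromosome 2, 181319739 to 181356616), which was chosen after its values were seen, encodes a helicase that maintains telomeres. Its level was 127, 90.6, 98.8, 104 and 95.1 CPM in the controls, 154, 169 and 178 CPM in Mphosph8∆n and 163 and 159 CPM in Morc2a∆n, and the groups did not overlap. The log2 fold change was 0.67 (SE 0.11, adjusted p = 0.0163), 0.66 in the Mphosph8 line and 0.69 in the Morc2a line. It is the only gene that passed the adjusted p but not the minimum fold change, and its adjusted p exceeded 0.05 without control replicate 2, 3 or 5 or Mphosph8∆n replicate 2 or 3 (0.0507 to 0.105).

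Kcnk15 (chromosome 2, 163853651 to 163859746), which codes for a potassium channel subunit, was the only gene that fell. It had 32, 37, 5, 53 and 19 counts in the controls, 1, 0 and 0 counts in Mphosph8∆n and 0 and 0 counts in Morc2a∆n. The gene was scarce in the controls, at 0.468 to 5.24 CPM, and held 1 count in all 5 Cre+ libraries together. The controls held 156 times the Cre+ level (95% exact interval 27.5 to 6185, counting error only), with an adjusted p of 0.0202. This call was lost without control replicate 1, 2 or 4, any 1 Mphosph8∆n replicate or Morc2a∆n replicate 2 (adjusted p 0.0505 to 0.137). None of the 14 genes tested within 500000 bases passed an adjusted p of 0.05, and 1 had an unadjusted p below 0.05 (2900093K20Rik, log2 fold change 0.43).

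Gh, the growth hormone gene (chromosome 11, 106300271 to 106301865), had 1, 0, 0, 1 and 2 counts in the controls, 16, 1116 and 38 counts in Mphosph8∆n and 35 and 26 counts in Morc2a∆n. All Cre+ libraries were above all controls, and Mphosph8∆n replicate 2 held 1116 of their 1231 counts. That library also held 183 counts of Prl, 73 of Cga and 1680 of Pomc, whereas Prl and Cga were at 0 counts in the other 4 Cre+ libraries. Without it, Gh was 34.3 times as abundant in Cre+ as in Cre- libraries by counts (95% exact interval 13 to 128), with 115 counts against 4, and its adjusted p went from 0.0220 to 0.202. The call was also lost without control replicate 1, 2 or 3 (adjusted p 0.149 to 0.170). Of the 10 genes of the growth hormone and pituitary list, 5 were tested and 1 was called, and the summed level of the list was 4.03 to 23.5 CPM in Cre-, 12.5 to 27.9 CPM in the other 4 Cre+ libraries and 302 CPM in Mphosph8∆n replicate 2. Nestin-Cre transgenes in wide use hold a segment of the human growth hormone gene, and counts per gene do not show from which copy a read came. As all Cre+ and no Cre- mice carry the transgene, its part in the counts of Gh and that of the knockouts cannot be told apart.

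**Figure D3:**
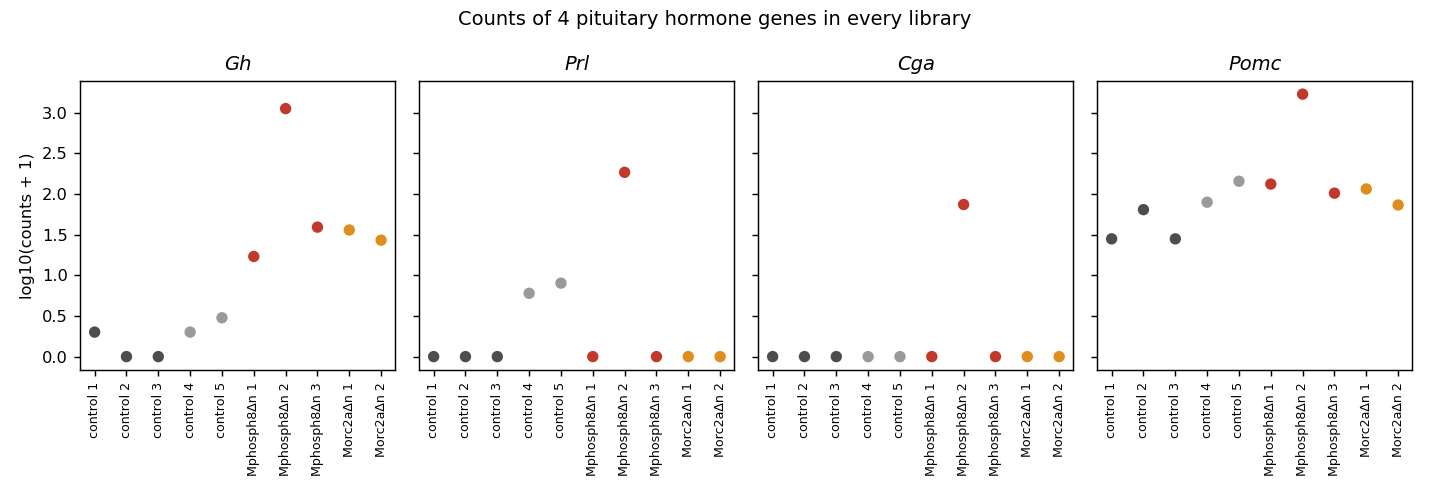
Counts of Gh, Prl, Cga and Pomc in every library, as log10(counts + 1). Gh is raised in all 5 Cre+ libraries, whereas Prl, Cga and Pomc stand out in Mphosph8∆n replicate 2 alone, with 183, 73 and 1680 counts.

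Whether the effect was shared was examined by comparing the libraries labelled as each knockout with controls of the same line, 3 against 3 libraries in the Mphosph8 line and 2 against 2 in the Morc2a line, so that both effects share no library. In the Mphosph8 line 10 genes rose (0.0538% of genes tested) and none fell, while 499 were lower at an unadjusted p below 0.05. Limma-voom called 2 and DESeq2 4 genes lower there. The 10 genes were 3222401L13Rik, Pcdhb6, Pcdhb7, Pcdhb8, Pcdhb14, Pcdhb17, Pcdhga12, Pcdhgc4, Gh and Zfp990. Over all 18573 genes tested, 48.8% had the same sign in both lines, and 1687 had an unadjusted p below 0.05 in the Morc2a line. The 10 genes all had a positive log2 fold change in the Morc2a line too, and 9 of them with an unadjusted p below 0.05. The exception was Zfp990, a zinc finger gene, which had 0.251, 0 and 0 CPM in control replicates 1 to 3, 2.57 and 4.60 CPM in control replicates 4 and 5, 6.73, 6.38 and 10.5 CPM in Mphosph8∆n and 3.62 and 4.24 CPM in Morc2a∆n. Its levels in the Morc2a line overlapped between controls and Morc2a∆n.

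In the Morc2a line 7 genes rose (0.0377% of genes tested) and 3 fell (0.0162%). The 7 were 3222401L13Rik, Pcdhb6, Pcdhb8, Pcdhb14, Pcdhga12, Pcdhgc4 and the antisense gene Gm40893, so that 6 of the 7 were also among the 10 of the Mphosph8 line. The genes that fell, Oscar, Bccip and Gm43176, were not called in the Mphosph8 line. Bccip, which encodes a partner of BRCA2, had 45.2 and 48.4 CPM in control replicates 4 and 5 and 13.6 and 18.6 CPM in Morc2a∆n, against 51.6 to 62.7 CPM in control replicates 1 to 3 and 58.1 to 69.2 CPM in Mphosph8∆n. Oscar, a receptor gene of the osteoclast lineage, had 10.7 and 9.21 CPM in control replicates 4 and 5 and 1.06 and 0.620 CPM in Morc2a∆n, against 11 to 21.1 and 10.7 to 13.7 CPM in the Mphosph8 line. These genes outside the rule for naming were chosen after their values were seen.

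The agreement of both lines was found in the cluster and not across the genome. Of all 18573 genes tested, 48.8% had the same sign in both lines (Pearson r = -0.01 across genes, which are not independent replicates). Among the 1003 genes outside the cluster with an unadjusted p below 0.05 in the Mphosph8 line, 492 (49.1%) had the same sign in the Morc2a line. Among the 26 genes of the cluster chosen in the same way, all 26 had the same sign, and 18 also had an unadjusted p below 0.05 in the Morc2a line. Outside the cluster, 52 of the 1003 had both the same sign and such a p. Of the 49 cPcdhs tested, 39 were positive in both lines, 4 negative in both and 6 of opposite sign. Of genes with an unadjusted p below 0.05 in both lines, 18 of 18 had the same sign inside and 52 of 133 (39.1%) outside the cluster.

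**Figure D4:**
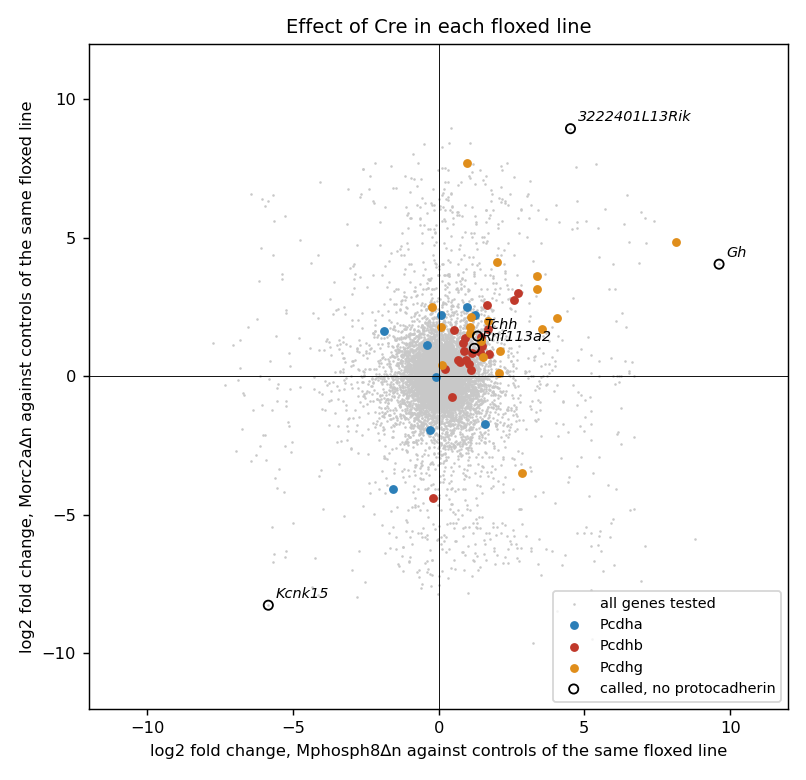
Log2 fold change in the Mphosph8 line (x axis, 3 libraries labelled Mphosph8∆n against 3 controls) and in the Morc2a line (y axis, 2 against 2), 1 point per gene. Grey points are all 18573 genes tested and form a cloud around 0 without a slope, while 39 of 49 cPcdhs lie in the upper right. Open circles mark called genes that are not cPcdhs.

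The size of the effect in both lines was compared by an interaction term. No gene passed an adjusted p of 0.05 in edgeR's quasi-likelihood test, with 1476 at an unadjusted p below 0.05 and a smallest adjusted p of 0.133. DESeq2 gave 64 genes, limma-voom 0, and edgeR on every gene with at least 1 count 96. Of the 16 called genes, 2 had an unadjusted interaction p below 0.05, both with the larger rise in the Morc2a line. These were 3222401L13Rik, with log2 fold changes of 4.52 in the Mphosph8 and 8.94 in the Morc2a line (SE of the difference 0.82, adjusted p = 0.133), and Pcdhga12, with 1.08 and 1.77 (unadjusted p = 0.0281). Among the 11 called cPcdhs the rise was larger in the Mphosph8 line for 5 and in the Morc2a line for 6.

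The 3 genes with the smallest interaction p were Gabra6, Cfp and Cbln3. Gabra6 and Cbln3 are genes of cerebellar granule neurons. Gabra6 had 2.26, 3.12, 5.71, 103 and 4.75 CPM in control replicates 1 to 5, 49.4, 74.4 and 4.66 CPM in Mphosph8∆n and 0.745 and 0 CPM in Morc2a∆n, and Cbln3 had 3.89, 6.44, 5.34, 150 and 1.04 CPM, then 68.3, 92.4 and 7.66 CPM, and 0.639 and 0.723 CPM. Both were high in control replicate 4 and in Mphosph8∆n replicates 1 and 2 alone, and the summed granule neuron markers were high in the same 3 libraries (777, 482 and 672 CPM, against 204 to 308 CPM in the other 7). The part of granule neuron content in these values was not tested. Cfp, the properdin gene, had 145 to 169 CPM in control replicates 1 to 3, 126 to 128 CPM in Mphosph8∆n, 96.7 and 104 CPM in control replicates 4 and 5 and 167 and 187 CPM in Morc2a∆n. Its fold changes thus had opposite signs in both lines (-0.33 and 0.82).

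Of all genes tested, the 5 Cre+ libraries lay above the 5 controls in 117 (0.630%) and below them in 80 (0.431%). Inside the cluster 19 of 59 genes lay above (32.2%) and 0 below, and outside it 98 of 18514 lay above (0.529%). Of the 15 genes that rose, 8 have 1 exon, as do 2293 of the 18573 genes tested (12.3%), and no enrichment was tested. Of these 8, 7 belong to the cluster, and among 324 protein-coding genes of 1 exon outside it that were tested, Rnf113a2 was the only one called. At an unadjusted p below 0.05, 16 of the 324 were higher and 11 lower (background 2.90% and 2.86%), with a median log2 fold change of -0.02. The pseudogene Rps4l, also of 1 exon and chosen after its values were seen, just missed the threshold, with 16.8 to 32.7 CPM in Cre- and 41.1 to 72.5 CPM in Cre+ libraries (log2 fold change 1.04, adjusted p = 0.0608).

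The other gene groups gave few differences. Over all genes tested, 0.0808% were called higher and 0.00538% lower, so the absence of calls in lists this small says little about them. Of the 7 genes for HUSH subunits and partners, none was called (median log2 fold change 0.05). Morc2a (0.47, unadjusted p = 8.81e-04) and Fam208a, which encodes the HUSH subunit TASOR (0.34, unadjusted p = 0.0200), were higher without adjustment. The 11 protocadherin genes tested outside the cluster had a median of -0.08 and none was called. Neither was any of 37 synaptic adhesion genes (median -0.05), 26 genes of dendritic spines and the postsynaptic density (-0.04), 21 interferon response genes (0.08), 6 germline genes (-0.18) or 10 genes of the growth hormone axis outside the pituitary (-0.11). The 11 Skint genes were too low to be tested, with at most 0.213 CPM summed in a library.

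Among 16 genes induced by recent neuronal activity, all 16 had a negative log2 fold change and 4 an unadjusted p below 0.05 (background 2.86%), with a median of -0.38, -0.76 in the Mphosph8 line and 0.12 in the Morc2a line. None was called. Egr1, an immediate early transcription factor gene chosen after its values were seen, had 220, 252, 286, 154 and 151 CPM in the controls, 170, 149 and 114 CPM in Mphosph8∆n and 138 and 108 CPM in Morc2a∆n, and these groups overlapped (log2 fold change -0.61, adjusted p = 0.163).

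The cell type markers bear on whether the sorted nuclei were alike. In bulk nuclei, fewer cells of a type and less RNA per cell cannot be told apart. No marker of any list was called (0.0808% of all genes tested were called higher and 0.00538% lower). Markers of striatal medium spiny neurons summed to 2161, 2353, 2161, 2193 and 2168 CPM in the controls and to 1541, 1895, 1917, 2040 and 1614 CPM in the Cre+ libraries, so that all Cre+ libraries were below all controls. Their 9 tested members were all negative (median -0.23), 3 with an unadjusted p below 0.05 (background 2.86%), among them Pde10a (-0.42, adjusted p = 0.280). All other marker sums overlapped between the groups. The median log2 fold changes were -0.12 for neurons in general, -0.19 for forebrain excitatory and -0.12 for inhibitory neurons, 0.12 for cerebellar granule neurons, 0.01 for midbrain and hindbrain neurons, -0.10 for astrocytes, 0.01 for oligodendrocytes, 0.16 for their precursors, -0.48 for microglia and 0.18 for endothelial cells. Whether these shifts bear on the called genes was not tested.

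**Figure D5:**
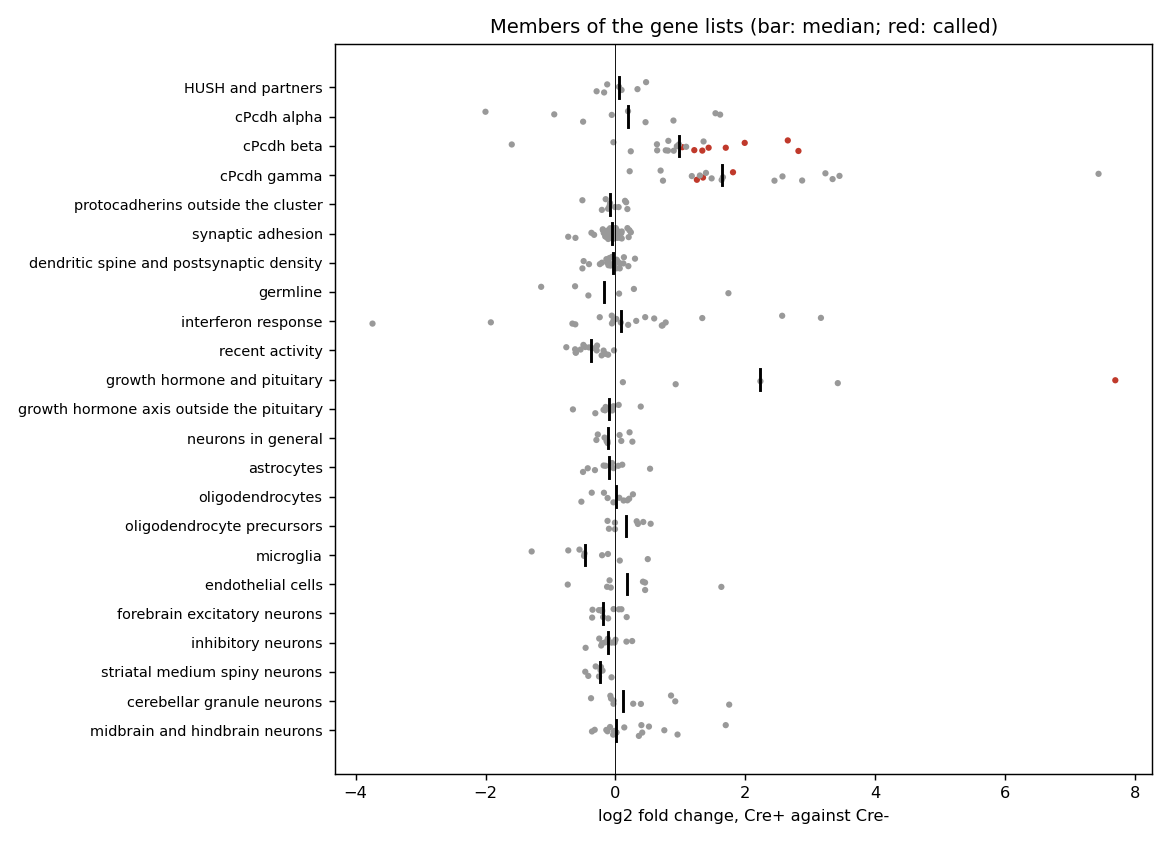
Shared log2 fold change of each tested member of the gene lists but that of 1-exon genes, with the median of a list as a bar and called genes in red. The beta and gamma cPcdhs have medians of 0.98 and 1.64, those of all other lists drawn but the pituitary one lie between -0.48 and 0.19, and red points appear in the beta, gamma and pituitary lists only.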

How the data were processed

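RNA of sorted NeuN+ nuclei was sequenced in 10 libraries. After poly(A) enrichment, the authors obtained single reads of 50 bases, trimmed them with Trim Galore 0.5.0, removed abundant sequences with Bowtie2 2.3.4.1, aligned to GRCm38 with STAR and counted reads in Ensembl genes with featureCounts (Subread 1.6.2). Each deposited table holds unnormalized counts per gene, for 54532 genes. The strand setting and the treatment of reads on several genes are not given in the sources used here. GENCODE release 21 (mouse) gave symbols, positions and exons for 54495 of the identifiers.

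The tests here used edgeR 4.0.16 under R 4.3.3. Genes were filtered by filterByExpr on the 3 groups (minimum count 10, 18573 genes kept) and libraries scaled by TMM. Terms for floxed line and Cre were fitted to all 10 libraries (biological coefficient of variation 0.369) and Cre was tested with glmQLFTest. SEs are the log2 fold change divided by the square root of F. P-values were adjusted by Benjamini-Hochberg over all genes tested, and a call required an adjusted p under 0.05 with more than 2-fold change. A second fit with 4 groups (line by Cre) gave the effect in each line and their difference. CPM used the scaled library sizes. The scripts were tested on simulated data. Figures were drawn in Python 3.11.15 with matplotlib 3.10.9.

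Named genes were the targeted genes and Rbfox3, the called genes outside the cluster whose groups do not overlap (at most 10 per direction), the 8 called cPcdhs with the largest rise, Pcdhb14, Gh, the 3 genes with the smallest interaction p and called list members (at most 4 per list by fold). Members and lists were chosen with earlier results of these data known. Intervals of count ratios are exact 95% intervals and cover counting error only. Alternatives were median-of-ratios size factors, 2 other filters, DESeq2 1.42.0, limma-voom (limma 3.58.1), no minimum fold change, each library left out, the replicate number as a block, no line term, equally weighted lines and plain library totals for sums. Between replicates of a group, chi-square per degree of freedom was between 9.55 and 38.4 over 8 pairs. Over all genes together, the spread between libraries thus exceeded counting error. This need not hold gene by gene, and counting error is large for scarce genes such as Kcnk15 and Pcdhga7.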

Additional observations from a re-analysis of the deposited data

Results flagged for a closer look

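Within the 5 Cre- and within the 5 Cre+ libraries, 10 of 84 sets of 5 values held an outlying library. In these, the gap to the next value, as a share of the range, exceeded Dixon's critical value of 0.71. The sets overlap, as Gabra6, Cbln3 and Gh also count in the sums of their lists. Some genes were also named for their values, so the 10 cannot be set against a rate by chance. In Mphosph8∆n replicate 2, Gh had 108 CPM against 1.66 to 3.93 CPM in the other Cre+ libraries, and the growth hormone and pituitary genes summed to 302 CPM against 12.5 to 27.9 CPM. In control replicate 4, Gabra6 had 103 CPM against 2.26 to 5.71 CPM in the other controls, Cbln3 had 150 CPM against 1.04 to 6.44 CPM, and cerebellar granule neuron markers summed to 777 CPM against 204 to 272 CPM. Mphosph8 had 18.8 CPM in Mphosph8∆n replicate 3 and 35.96 to 41.4 CPM in the other Cre+ libraries. The Pcdha genes summed to 33.3 CPM in Mphosph8∆n replicate 1 and to 6.94 to 13.7 CPM in the others. Kcnk15 had 0.104 CPM, a single count, in Mphosph8∆n replicate 1 and 0 in the other Cre+ libraries. Germline genes summed to 36.7 CPM in control replicate 5 against 17.1 to 20.4 CPM in the other controls, and striatal neuron markers to 2353 CPM in control replicate 2 against 2161 to 2193 CPM.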

How the results depend on the processing

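Counts of calls moved most with the tool and the filter. DESeq2 called 33 genes higher and 3 lower for the shared effect, 31 in the Mphosph8 line, 73 in the Morc2a line and 64 for the difference. Testing all genes with at least 1 count gave 41, 4, 61, 75 and 96, with 17 cPcdhs higher. With at least 10 counts in every library, 0 genes were lower and 20 were called in the Mphosph8 line, and 3222401L13Rik, Gh and Kcnk15 were not tested. Limma-voom gave 0 lower and 2 in the Morc2a line. Weighting both lines equally gave 3 lower. The same-numbered libraries deviated with correlations of -0.0192 to 0.0141 over 7 pairs, and numbers were not taken to pair samples. Control replicates 4 and 5 share their number with no Cre+ library, so this comparison cannot show pairing within the Morc2a line. With the replicate block each of these 2 controls is fitted by its own term. The Cre term then rests on the Mphosph8 line alone and is not a shared effect. In that fit 12 genes were higher, 7 of them cPcdhs, 0 were lower, 12 were called in the Mphosph8 line, and 9 of the 16 called genes kept the call. Leaving out 1 library at a time gave 11 to 18 genes higher, 0 to 1 lower, 8 to 11 cPcdhs, 4 to 13 calls in the Mphosph8 line (4 without control replicate 3), 4 to 15 in the Morc2a line (4 without control replicate 4) and 0 to 7 for the difference (7 without control replicate 5). Without Mphosph8∆n replicate 2 and Morc2a∆n replicate 1 together, chosen after seeing the data, 11 genes were higher, 8 of them cPcdhs, and 0 lower. Pcdhb6, Pcdhb8, Pcdhb17, Pcdhga12 and 3222401L13Rik kept their direction and an adjusted p below 0.05 under every alternative that tested them. The shared log2 fold changes of 3 uncalled genes reversed when 1 library was left out, with ranges of -0.84 to 2.28 for Gabra6 (-0.84, -0.80 and -0.63 without control replicate 1, 2 or 3), -0.86 to 3.00 for Cbln3 (-0.86, -0.75 and -0.82 without the same libraries) and -0.016 to 0.20 for Cfp (-0.016 without control replicate 5). The cause of these changes was not tested. With the replicate block Cfp was at -0.33, its value in the Mphosph8 line, on which alone that fit rests.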
